A study of Mus with 9 samples.

Results

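Complex I (NADH:ubiquinone oxidoreductase) is the entry point of the mitochondrial respiratory chain. Its genes were taken from the hippocampal arrays by symbol, as every probe set with a symbol beginning Ndufa, Ndufb, Ndufc, Ndufs, Ndufv or Ndufaf followed by a number, pseudogene symbols left out. The rule gave 45 of the 22206 probe sets, for 44 of the 22662 genes named on the array. They comprised 7 core subunits, 30 accessory subunits (31 probe sets, since Ndufa13 had a further one) and 7 assembly factors. The rule itself reads symbols only.

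Hippocampal RNA was hybridized to 9 Clariom S Mouse arrays, 3 in each group, although the design text of the series speaks of duplicates. The methods describe the SAMP8 mice as male and 16 weeks old when taken into the study, before dosing and testing, and the age and sex of the SAMR1 mice are not given in the sources used here. SAMP8 is an inbred strain with accelerated senescence and early memory loss, and SAMR1 is the related senescence-resistant strain kept as the normal aging control. The SAMR1 and SAMP8 groups were given vehicle, which is water in the methods and saline in the labels. The TG-treated SAMP8 group was given trigonelline (TG), a plant alkaloid, by mouth at 5 mg/kg/day for 30 days. All groups then went through 8 days of Morris water maze testing, during which TG was continued. The design holds no TG-treated SAMR1 mice. The free-text description of each sample speaks of a macrophage cell line under another treatment, and the groups were taken from the sample titles instead.

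The values are the log2 averages that the authors deposited for each group, 1 value per probe set and group. The spread between the arrays of a group was not analysed here, so no test across arrays was made, and every difference below is a description of 2 averages with no error of its own. Higher and lower mean a difference of any size between averages, and a further count was made of differences of more than 1.5-fold (0.58 on the log2 scale). The share of all probe sets past that limit is given with the counts over all members in each comparison. Medians of the averages over all probe sets were 6.09 for SAMR1, 6.04 for SAMP8 and 6.07 with TG. The small number of arrays limits the precision of every average.

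In complex I, electrons from NADH pass through a flavin and a chain of iron-sulfur clusters in the matrix arm to ubiquinone, and the membrane arm pumps protons. The core subunits carry the redox groups, the accessory subunits surround and stabilise them, and assembly factors help to build the complex without remaining in it. Neurons depend heavily on oxidative phosphorylation, which makes the complex a frequent subject of work on brain aging. The core subunits encoded by mitochondrial DNA were not analysed here.

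With TG, complex I subunits stood higher as a group, whereas the assembly factors stood close to the level of nontreated SAMP8. The median difference of TG-treated SAMP8 minus SAMP8 was 0.37 on the log2 scale over the 45 probe sets, against 0.01 over all probe sets. By role, the median difference was 0.64 for the core subunits, 0.38 for the accessory subunits and 0.08 for the assembly factors. Of the 45, 38 had the higher average with TG, 6 the lower and 1 the same, where 50.0% of all probe sets were higher. More than 1.5-fold higher were 9 of the 45 (4 core and 5 accessory), against 4.48% of all probe sets. More than 1.5-fold lower were 0 of the 45, against 3.74%. Between the strains the same genes lay near the rest of the array, with a median difference of SAMP8 minus SAMR1 of 0.08.

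**Figure D1:**
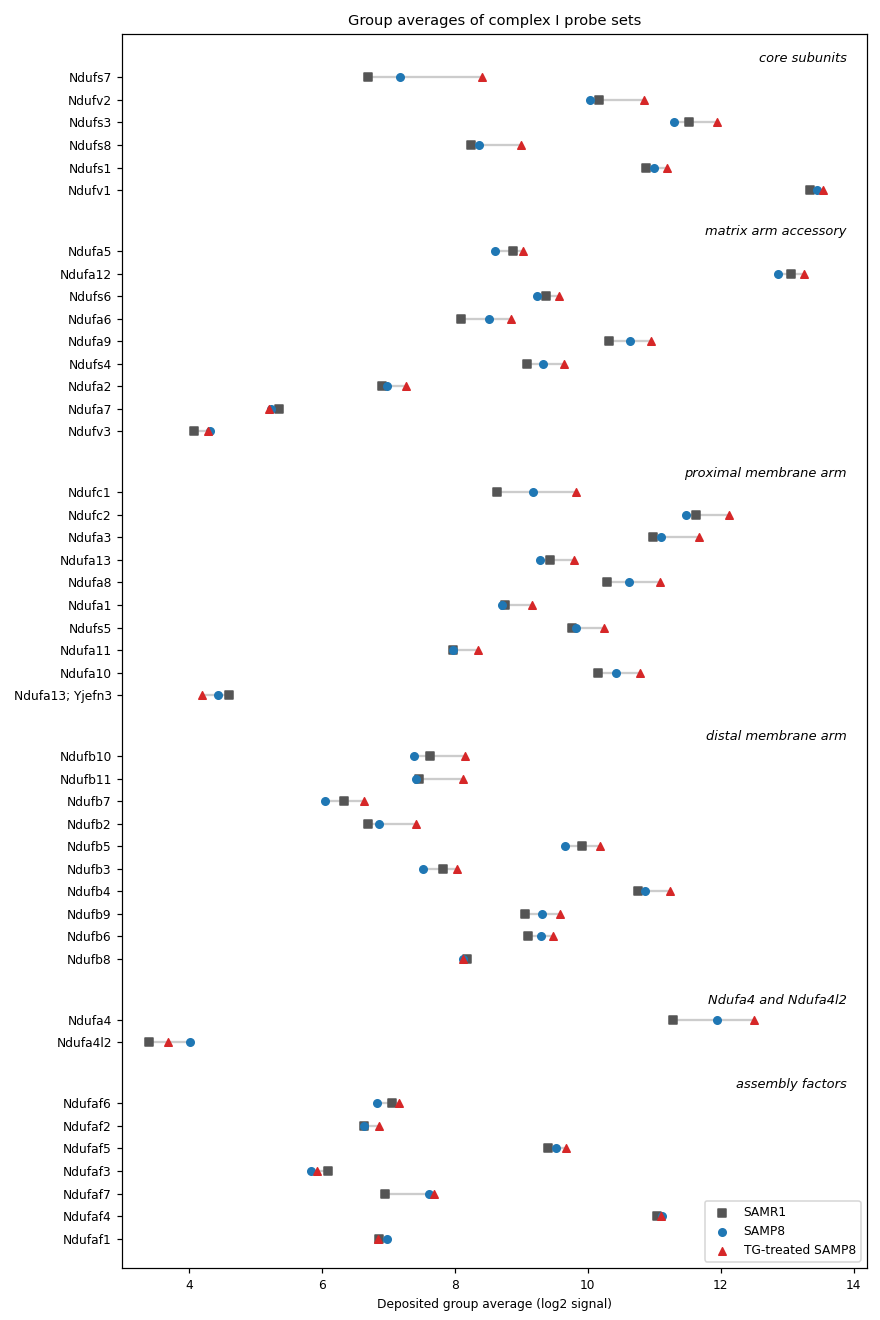
Deposited group averages (log2 signal, horizontal axis) of each complex I probe set in SAMR1 (squares), SAMP8 (circles) and TG-treated SAMP8 (triangles), grouped by role and ordered by the difference with TG. One probe set is not drawn. The triangle is the rightmost symbol in most rows, and in the assembly factors the symbols lie closer together, apart from Ndufaf7.

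All 7 nuclear core subunits had their highest average in the TG-treated group. Ndufs7, which holds the last iron-sulfur cluster before ubiquinone, showed the widest difference of the members. Its gene lies on chromosome 10 from 80249105 to 80256794 (GRCm38, as are all positions here). The averages of Ndufs7 were 6.70 in SAMR1, 7.17 in SAMP8 and 8.41 with TG. The difference with TG was thus 1.24 on the log2 scale (2.36-fold), and only 18 of all 22206 probe sets had a higher one. Ndufs7 was the single member past a difference of 2-fold with TG.

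Ndufv2, on chromosome 17 from 66078795 to 66101559, encodes an iron-sulfur subunit of the NADH-oxidizing tip. Its averages were 10.17 in SAMR1, 10.03 in SAMP8 and 10.85 with TG, which made it 1.77-fold higher with TG. Unlike Ndufs7, it was lowest in nontreated SAMP8.

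The Ndufs3 product is an early scaffold of the matrix arm, and its averages ran from 11.52 in SAMR1 through 11.30 in SAMP8 to 11.95 with TG (1.57-fold higher than in SAMP8). The iron-sulfur subunit Ndufs8 had 8.24, 8.36 and 9.00 for SAMR1, SAMP8 and TG, a difference with TG of 0.64. Ndufs3, Ndufs7 and Ndufs8, which lie towards the ubiquinone site, therefore differed with TG by 0.64 or more each.

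Ndufs1 and Ndufv1 belong to the NADH-oxidizing tip and showed the smallest differences of their class. Ndufs1, the subunit with the longest stretch of iron-sulfur clusters, had averages of 10.88 in SAMR1, 11.00 in SAMP8 and 11.20 with TG. Ndufv1, which binds NADH and the flavin, had 13.35, 13.45 and 13.54, a difference with TG of 0.09 (1.06-fold). Ndufv2 belongs to the same tip, so its 3 core subunits ranged from 0.09 to 0.82.

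Accessory subunits were divided by their place in the complex. In the membrane arm, the 9 proximal genes (10 probe sets) had a median difference with TG of 0.46 and the 10 distal Ndufb genes one of 0.53. The 9 accessory subunits of the matrix arm had a median of 0.31. Of them, 0 were more than 1.5-fold higher, near the 4.48% of all probe sets.

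Of the distal membrane arm, 9 of 10 probe sets were higher with TG and 3 passed 1.5-fold, against 50.0% and 4.48% of all. Ndufb10, on chromosome 17 from 24722060 to 24724423, had averages of 7.63 in SAMR1, 7.39 in SAMP8 and 8.15 with TG, a 1.69-fold difference between the treated and nontreated SAMP8 groups. The X-linked Ndufb11, on chromosome X from 20615326 to 20617619, stood at 7.46, 7.42 and 8.13 (1.64-fold). Both genes had SAMR1 and SAMP8 averages less than 0.25 apart. Ndufb7, which faces the intermembrane space, had 6.34, 6.04 and 6.64, so that its TG average exceeded that of SAMR1 by 0.30 only. Just below the limit were Ndufb2 with 6.70, 6.86 and 7.41, Ndufb5 with 9.92, 9.66 and 10.19, and Ndufb3 with 7.83, 7.52 and 8.04. Differences with TG were smaller for Ndufb4 (0.37), Ndufb9 (0.28) and Ndufb6 (0.18). Ndufb8, on chromosome 19 from 44548571 to 44555442, was the exception in this arm, with 8.19 in SAMR1 and 8.12 in both SAMP8 groups.

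In the proximal membrane arm, 2 of 10 probe sets passed 1.5-fold upward with TG (4.48% of all), Ndufc1 and Ndufc2. Ndufc1, a small single-span membrane subunit on chromosome 3 from 51405479 to 51408955, had averages of 8.64 in SAMR1, 9.18 in SAMP8 and 9.83 with TG. It was thus higher at each step, by 0.54 between the strains and by 0.65 with TG. Ndufc2 stood at 11.63, 11.48 and 12.12, with a difference of 0.64 with TG and of the opposite sign between the strains. Ndufa3 had 10.98, 11.10 and 11.68 and lay just under the limit at 0.58. The proximal subunits Ndufa13 (0.51), Ndufa8 (0.47), Ndufa1 (0.45), Ndufs5 (0.42), Ndufa11 (0.37) and Ndufa10 (0.35) formed a narrow range of differences with TG.

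Ndufa13, also known as GRIM-19, was read by a pair of probe sets that went opposite ways with TG but not between the strains. Its own probe set had averages of 9.44 in SAMR1, 9.29 in SAMP8 and 9.80 with TG. The probe set that carries the symbols of both Ndufa13 and its neighbour Yjefn3 had 4.60, 4.44 and 4.20, a difference with TG of -0.24. The shared probe set had a low signal and was the single member probe set named for 2 genes.

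Among the matrix arm accessory subunits, 7 of 9 were higher with TG, by 0.28 to 0.41. Ndufa5 had the widest difference of them, with averages of 8.87 in SAMR1, 8.61 in SAMP8 and 9.02 with TG. Ndufa12 (0.38), Ndufs6 (0.34), Ndufa6 (0.33), Ndufs4 (0.31), Ndufa9 (0.31) and Ndufa2 (0.28) followed closely. Ndufa7 and Ndufv3 showed a difference with TG of -0.03 each, and their averages, from 4.07 to 5.36, fell in the lower classes of signal on the array.

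Ndufa4 carries a complex I name but is now counted as a subunit of complex IV, cytochrome c oxidase, and Ndufa4l2 is its paralog, known as a hypoxia-induced gene. Ndufa4, on chromosome 6 from 11900372 to 11907450, had averages of 11.29 in SAMR1, 11.94 in SAMP8 and 12.51 with TG. It was the accessory member with the widest difference between TG-treated SAMP8 and SAMR1, 1.22 on the log2 scale (2.33-fold). Ndufa4l2 had 3.40, 4.02 and 3.69, under the limit of a filter on low signal, and was highest in nontreated SAMP8. The paralogs therefore shared the direction between the strains and not with TG.

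**Figure D2:**
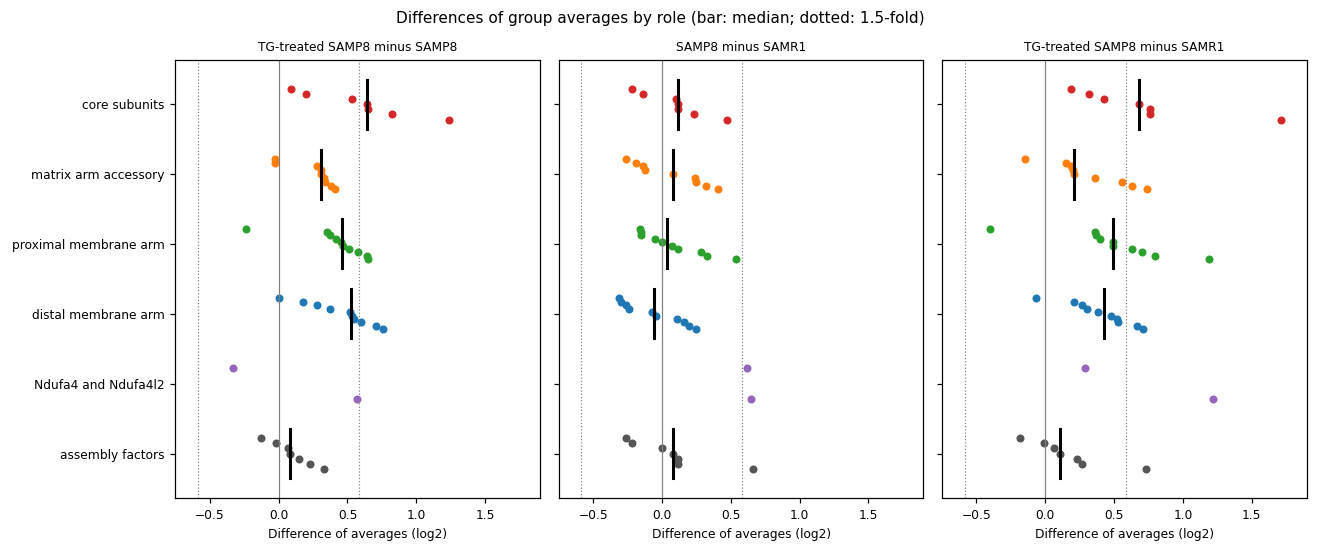
Differences of group averages (log2, horizontal axis) of each probe set by role in the 3 comparisons, with the median as a black bar where a role has more than 2 probe sets, and dotted lines at 1.5-fold. With TG the medians run from 0.64 for core subunits to 0.08 for assembly factors, whereas between SAMP8 and SAMR1 all the medians drawn lie near 0.

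The 7 assembly factors differed little with TG, from -0.13 to 0.33. Past 1.5-fold were 0 in either direction, near the shares of all probe sets (4.48% higher and 3.74% lower). Ndufaf6 had the widest difference, with averages of 7.05 in SAMR1, 6.83 in SAMP8 and 7.16 with TG. Ndufaf2, a late-acting factor related in sequence to the subunit Ndufa12, stood at 6.63 in both vehicle groups and 6.86 with TG. Ndufaf5 hydroxylates an arginine of Ndufs7, and its averages of 9.40, 9.52 and 9.67 gave a difference with TG of 0.15, beside 1.24 for Ndufs7 itself.

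Ndufaf3 and Ndufaf4 act together on the ubiquinone-binding part. Ndufaf3 had 6.10 in SAMR1, 5.84 in SAMP8 and 5.92 with TG, and Ndufaf4 had 11.04, 11.12 and 11.10. Ndufaf1, a factor of the membrane arm, was the one with the lowest difference, with 6.86, 6.98 and 6.85. None of these 3 genes had averages more than 0.26 apart in any comparison.

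Ndufaf7, a mitochondrial methyltransferase, differed between the strains instead. Its gene lies on chromosome 17 from 78937106 to 78948052. The averages of Ndufaf7 were 6.95 in SAMR1, 7.61 in SAMP8 and 7.68 with TG, so that SAMP8 was 1.58-fold above SAMR1 while the SAMP8 groups differed by 0.07.

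Genes of the complex that the symbol rule does not reach were looked up in 2 further lists. Ndufab1, the acyl carrier protein that is also a complex I subunit, had averages of 10.62 in SAMR1, 10.37 in SAMP8 and 11.23 with TG, a difference with TG of 0.86, higher as for most subunits above. Of 11 other genes listed as assembly factors, 4 were higher and 7 lower with TG, where 50.0% of all probe sets were higher. The 11 genes had a median difference of -0.33 with TG, 0.01 between the strains and 0.01 for TG-treated SAMP8 minus SAMR1. Ecsit was the highest of them with TG (0.50) and Atp5s the lowest (-0.61). Atp5s carries an ATP synthase symbol and is counted with ATP synthase below too, so its place among the assembly factors is uncertain. The counts and the median of the 11 include it. Acad9 (-0.41) and Tmem126b (-0.39), which form an assembly complex with Ecsit and Ndufaf1, were lower. Also lower were Tmem261 (-0.38), Nubpl (-0.36), Foxred1 (-0.33) and Lyrm2 (-0.20). Timmdc1 (0.25), Tmem186 (0.06) and Tmem70 (0.05) were higher. Acad9, Tmem126b and Tmem261 were higher in SAMP8 than in SAMR1 (0.39, 0.43 and 0.59). For TG-treated SAMP8 minus SAMR1 they stood at -0.02, 0.04 and 0.21. Ecsit had the opposite sign between the strains (-0.46) and stood at 0.04 for TG-treated SAMP8 minus SAMR1. Foxred1 (-0.34), Nubpl (-0.24) and Atp5s (-0.65) were below SAMR1 in the TG-treated group. The lists of assembly factors inside and outside the symbol rule, the latter with Atp5s, thus had medians with TG of 0.08 and -0.33. Both were below those of the subunits.

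Between the strains, the differences of the complex I genes lay within the range common on the array, with quartiles of -0.15 and 0.24 against -0.21 and 0.21 for all probe sets. SAMP8 minus SAMR1 was above 0 for 25 of the 45 probe sets and below for 18, where 49.5% of all probe sets were higher. More than 1.5-fold higher in SAMP8 were 3 of the 45, Ndufa4, Ndufa4l2 and Ndufaf7, against 5.00% of all probe sets. More than 1.5-fold lower were 0 of the 45, against 6.08%. Both counts were close to the background or below it.

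The strain difference was 0.12 in the median for the core subunits, 0.07 for the accessory subunits and 0.08 for the assembly factors. Ndufs7 had the highest difference of the core subunits, 0.47, and Ndufs3 the lowest, -0.22. Of the 31 accessory probe sets, 16 were higher in SAMP8, where 49.5% of all probe sets were. After Ndufa4, Ndufa4l2 and Ndufc1, the accessory subunits with the highest differences were Ndufa6 (8.10 in SAMR1 and 8.51 in SAMP8), Ndufa8 (10.29 and 10.62) and Ndufa9 (10.32 and 10.64). Ndufa10 (10.15 and 10.43), Ndufb9 (9.06 and 9.31) and Ndufs4 (9.08 and 9.33) came next. Those with the lowest differences were Ndufb3 (-0.31), Ndufb7 (-0.30), Ndufa5 (-0.26), Ndufb5 (-0.26) and Ndufb10 (-0.24). The distal membrane arm, to which 4 of these 5 belong, was the one arm whose median between the strains was below 0, at -0.06.

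The TG-treated SAMP8 group also exceeded the SAMR1 control. The median difference of TG-treated SAMP8 minus SAMR1 was 0.38 over the members and -0.01 over all probe sets. Higher in TG-treated SAMP8 were 40 of the 45, against 48.1% of all probe sets. Past 1.5-fold upward were 14 of the 45, against 5.62%, and past it downward were 0, against 4.83%. By class the medians were 0.68 for core subunits, 0.40 for accessory subunits and 0.11 for assembly factors.

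Ndufs7 led this comparison too, with 1.71 on the log2 scale (3.27-fold). Ndufa4 (2.33-fold) and Ndufc1 (2.28-fold) were the other members past 2-fold. In each of these genes the averages ascended from SAMR1 through SAMP8 to TG-treated SAMP8. Next among the accessory subunits came Ndufa8 (0.80), Ndufa6 (0.74), Ndufb2 (0.71), Ndufa3 (0.70), Ndufb11 (0.67), Ndufa9 (0.63) and Ndufa10 (0.63). The lowest were the shared probe set of Ndufa13 and Yjefn3 (-0.40), Ndufa7 (-0.15), Ndufb8 (-0.07), Ndufa5 (0.15) and Ndufa12 (0.19).

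The order of the 3 averages described the members further. TG-treated SAMP8 was the highest of the groups in 37 of the 45 probe sets (82.2%), against 31.4% of all probe sets. This held for 7 of 7 core subunits, 26 of 31 accessory probe sets and 4 of 7 assembly factors. An ascending order of SAMR1, SAMP8 and TG-treated SAMP8 was found for 21 members (46.7%, against 16.6% of all probe sets). In 14 members (31.1%, against 14.0%) nontreated SAMP8 was lowest and SAMR1 stood between. Nontreated SAMP8 was the lowest group in 15 members, 33.3% against 32.7% of all. The 3 comparisons share groups, so a high TG-treated average enters both of its comparisons and the orders are not independent of them.

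**Figure D3:**
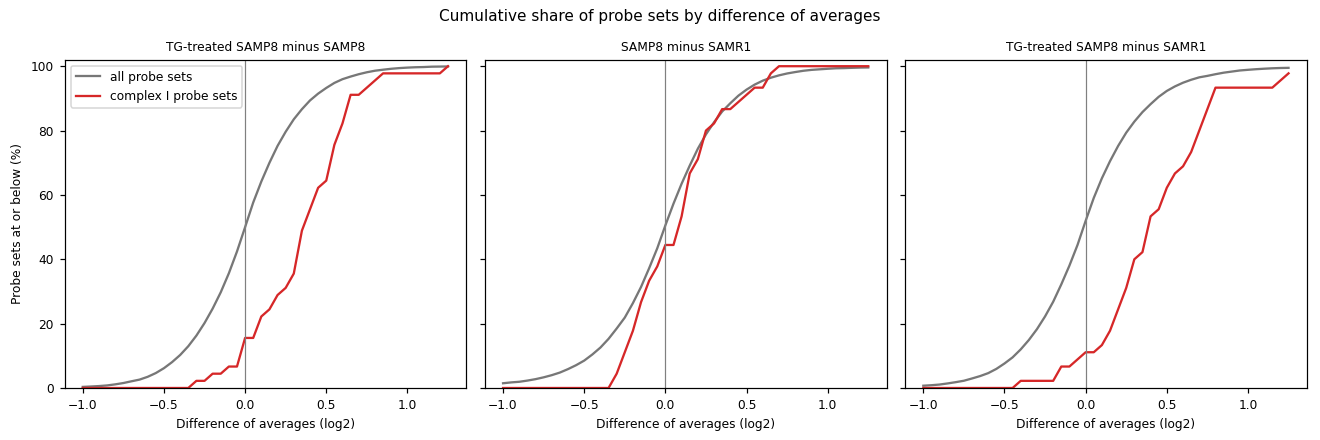
Cumulative share of probe sets (percent, vertical axis) at or below each difference of averages (log2, horizontal axis) for the complex I probe sets (red) and all 22206 probe sets (grey). The red curve lies to the right of the grey one in both comparisons of the TG-treated group, with medians of 0.37 and 0.38, and near it in SAMP8 minus SAMR1, with a median of 0.08. Ndufs7, at 1.71 in TG-treated SAMP8 minus SAMR1, lies beyond the axis.

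The other respiratory complexes were set beside complex I by the same counts. With TG the median difference was 0.42 for 9 probe sets of complex III, 0.52 for 18 of complex IV and 0.51 for 18 with ATP synthase symbols, Atp5s included. More than 1.5-fold higher were 3, 8 and 8 of them, against 4.48% of all probe sets, and more than 1.5-fold lower were 0, 0 and 1, against 3.74%. Complex II (succinate dehydrogenase) had a median of 0.14 over its 4 genes, of which 0 passed the limit. Between the strains, complexes III and II had medians of 0.38 and 0.40, above the 0.08 of complex I, while complex IV (0.03) and ATP synthase (0.06) did not. The differences between complexes were not tested.

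Genes outside the respiratory chain also stood higher with TG. Cytosolic ribosomal proteins, on 100 probe sets, had a median difference of 0.56 with TG, and of 0.06 between the strains. With TG, 48 of them were past 1.5-fold upward, against 4.48% of all probe sets, and 1 downward, against 3.74%.

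**Figure D4:**
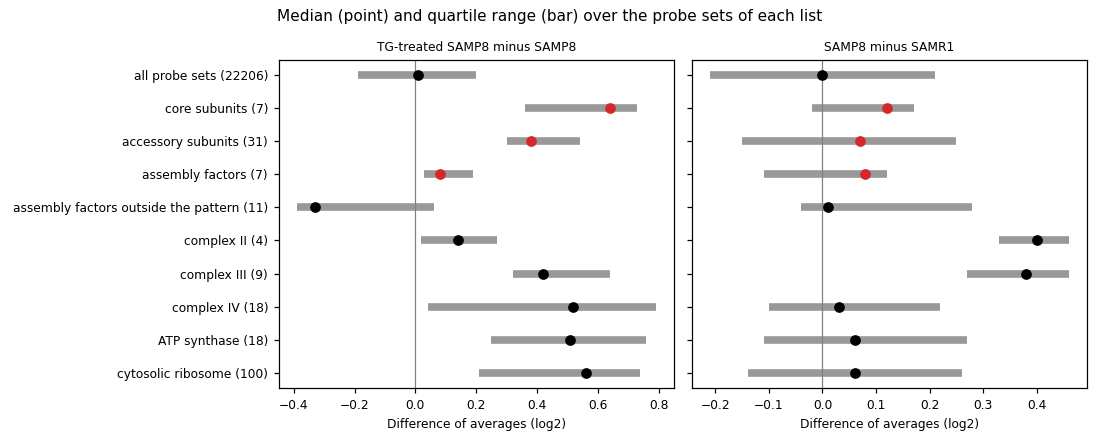
Median (points) and range from the lower to the upper quartile (bars) of the differences of averages (log2, horizontal axis) for TG-treated SAMP8 minus SAMP8 and for SAMP8 minus SAMR1, with the number of probe sets in brackets. With TG the complex I subunit classes (red, 0.64 and 0.38) lie on either side of complexes III and IV, ATP synthase and the ribosome (0.42 to 0.56), and the assembly factors (red, 0.08) lie near all probe sets (0.01).

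Differences with TG varied with signal and gene span over the whole array. All member genes could be placed on the reference annotation, on 16 chromosomes, with 6 genes on chromosome 17 as the most on any. Their genomic span had a median of 7.84 kb (1.85 to 106 kb), against 17.2 kb for all placed probe sets. When all placed probe sets were divided into 5 equal classes by span, the median difference with TG was 0.09 in the class of shortest genes and -0.10 in that of the longest. Within these classes the members had medians of 0.58 (9 probe sets) and 0.27 (2 probe sets). In the class from 4.25 to 11.8 kb, which held 23 members, their median was 0.37, against 0.05 for all.

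In 10 equal classes of mean signal, the medians of all probe sets with TG lay between -0.06 and 0.06. Members in the upper 5 classes had medians from 0.34 to 0.57, while the 5 members in the lower 5 classes had class medians from -0.33 to 0.08. After subtraction of the median of its signal class the difference of the members was 0.41 with TG, and after subtraction of that of its span class it was 0.36. With the subtraction by span, 6 members passed 1.5-fold upward in place of 9, and with that by signal 13. The part of span and signal in the differences of single members was not tested.

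**Figure D5:**
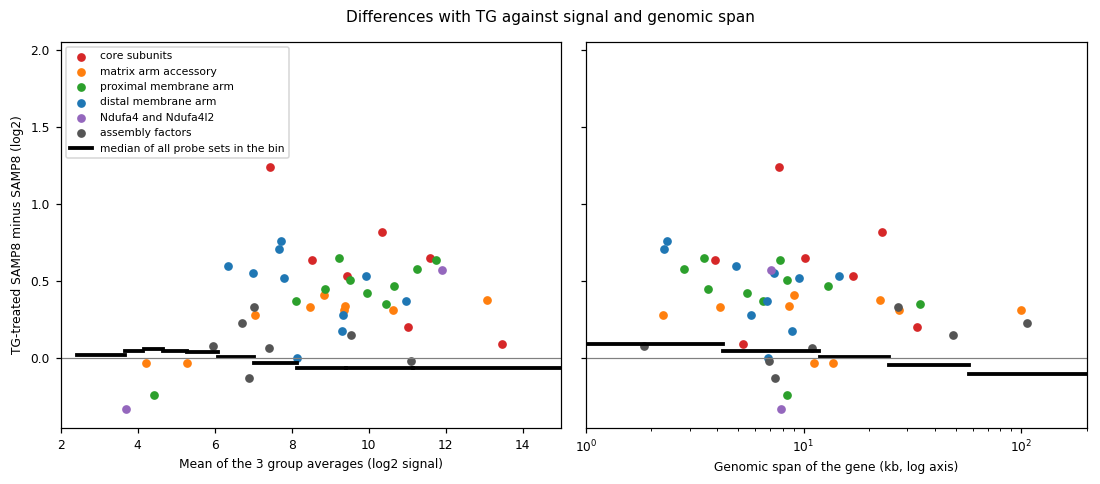
TG-treated SAMP8 minus SAMP8 (log2, vertical axis) of each complex I probe set against the mean of its 3 group averages (left) and the genomic span of its gene (right, log axis), coloured by role, with black bars for the median of all probe sets in each class of signal or span. Most members lie above the bars, apart from those of low signal, and the bars fall from 0.09 to -0.10 with span.

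Lists of cell type markers were compared between the SAMP8 groups too. Of all probe sets, 4.48% were more than 1.5-fold higher with TG and 3.74% more than 1.5-fold lower. By any size, 11108 of the 22206 probe sets were higher with TG and 10732 lower. Counts of higher or lower markers in lists this short are to be read beside these numbers. The summed linear signals of each list are given for SAMR1, SAMP8 and TG in that order. The markers of hippocampal neurons (Prox1, Wfs1, Neurod6, Zbtb20 and Calb1) had averages from 10.28 to 14.88 in the 3 groups, and none was near the bottom of the scale. They summed to 45000, 49300 and 42900. With TG, 4 of 5 were lower, 2 of them past 1.5-fold, with a median difference of -0.48.

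Oligodendrocyte markers stood higher with TG, as the complex I members did. They summed to 484000, 436000 and 503000, and 4 of 5 were higher with TG, 1 of them past 1.5-fold. Their median difference was 0.36, beside 0.37 for complex I. Between the strains the median was -0.25 for these markers and 0.08 for complex I. For TG-treated SAMP8 minus SAMR1 it was -0.03 and 0.38. Markers of neurons in general summed to 1370000, 1450000 and 1420000, with 4 of 6 lower with TG and a median difference of -0.09. Astrocyte markers summed to 346000, 359000 and 351000, with 4 of 5 lower and a median of -0.03. In both of these lists 0 passed 1.5-fold with TG.

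Markers of microglia and of vessels were mostly lower with TG. Microglia markers summed to 3120, 5100 and 4090, with 4 of 5 lower, a median difference of -0.31 and 0 past 1.5-fold. Endothelial markers summed to 2710, 4010 and 2310, with 4 of 4 lower, 1 of them past 1.5-fold, and a median of -0.28. Mural cell markers summed to 824, 1770 and 1390, with 4 of 5 lower and a median of -0.33, where 2 passed 1.5-fold downward and 1 upward. These sums were highest in nontreated SAMP8.

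Tissue beside the hippocampus was read by 4 further lists. Meningeal markers summed to 2830, 2920 and 1920, with 4 of 7 lower with TG, 2 of them past 1.5-fold, and a median difference of -0.15. Choroid plexus markers summed to 596, 966 and 1320, although 3 of 5 were lower with TG and the median difference was -0.04, with 1 past 1.5-fold in each direction. Thalamic markers summed to 4140, 4680 and 3160, with 5 of 7 probe sets lower, 1 of them past 1.5-fold, and a median of -0.10. Striatal markers summed to 254, 273 and 217, with 4 of 5 lower, 1 of them past 1.5-fold, and a median of -0.42. Their averages ran from 3.67 to 6.70, so low signal limits this list. The part of these cell types and regions in the complex I differences was not tested. In bulk tissue, fewer cells of a type and less RNA per cell cannot be told apart.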

How the data were processed

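Total RNA of the hippocampus was labelled with the GeneChip WT PLUS kit and hybridized to Clariom S Mouse arrays. The authors normalized and summarized the arrays by SST-RMA in Transcriptome Analysis Console (4.0.2 in the methods, 4.0.1 in the series text) and deposited 2 tables with the average of each group as log2 signal, annotated on mm10 (GRCm38). The same tables hold the authors' fold changes, p-values and adjusted p-values, which were not used. The SAMP8 averages were identical in both tables, so the third comparison, TG-treated SAMP8 minus SAMR1, was taken from the averages too.

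Differences of averages, rounded to 0.01, were computed for all 22206 probe sets in 3 comparisons. Since single arrays were not analysed here, no test was made. Genes were placed on the RefSeq annotation of GRCm38 by symbol (97.1% of probe sets). Named genes are all core subunits, all assembly factors and, in each comparison, the 8 accessory subunits with the highest and the 5 with the lowest differences, ties kept. Other members were named after their values were seen. For 1 member that the rule names, single values are not reported here, although it stays in the counts and medians. Members, lists and limits were chosen with earlier results of these data known. Alternatives were another fold limit, centring, a filter on low signal, averaging by gene, unambiguous probe sets, a changed membership and the mean, and, chosen after the data were seen, centring within 10 classes of signal or 5 of genomic span. The computation was tested on simulated data. Python 3.11.15, numpy 2.4.6, pandas 2.3.3 and matplotlib 3.10.9 were used.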

Additional observations from a re-analysis of the deposited data

How the results depend on the processing

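Of 132 recomputed values for 18 results (the medians and counts of the 3 comparisons), 117 stayed within 0.1 on the log2 scale or within 1.5 times the count, and 15 moved. With a limit of 1.2-fold (shares of all probe sets past each limit in brackets), 31 members were higher with TG than in SAMP8 (19.6%) and 1 lower (18.5%), 31 were higher with TG than in SAMR1 (20.0%) and 1 lower (20.5%), and in SAMP8 minus SAMR1 9 were higher (20.4%) and 2 lower (20.4%). With a limit of 2-fold, 1 member was higher with TG than in SAMP8 (0.437%), 3 than in SAMR1 (1.12%) and 0 between the strains (0.797%). Centring within 10 classes of signal, chosen after the data were seen, took the strain medians to -0.02 for all members, -0.02 for core subunits, -0.03 for accessory subunits and -0.02 for assembly factors, and so changed their sign near 0, and left 1 member more than 1.5-fold higher in SAMP8. Without Ndufa4 and Ndufa4l2 and with Ndufab1, 1 member was more than 1.5-fold higher in SAMP8. The filter on low signal kept 43 of the 45 probe sets. The effect of leaving out an array was not computed, since only averages were used, and low signal limits Ndufa4l2, Ndufv3, Ndufa7 and the probe set shared with Yjefn3.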
